A study of Mus musculus with 10 samples.

Results

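The 5 kainate receptor subunits, Grik1 to Grik5, and the 2 auxiliary proteins Neto1 and Neto2 were followed in ribosome-bound mRNA from the hippocampus of mice exposed to early life stress (ELS), acute stress (AS), both stresses or neither. They were taken from the expression table by gene symbol. All 7 were present among the 20171 genes used, and all 7 passed a filter that kept the 14986 genes averaging at least 3 over the groups. Neto1 and Grik2 were lower than in unstressed controls in all 3 stressed groups, by 0.34 to 0.54 and 0.42 to 0.48 on the log2 scale. Once a trend in transcript length was removed, they were lower by 0.21 to 0.41 and 0.30 to 0.35. The 3 differences of each gene share 1 value of unstressed controls. Of all genes, 37.4% were below unstressed controls in all 3 groups, and 5.51% by over 0.25 in each. Both shares are from differences with the length trend left in. Grik1 and Grik3 were lower with AS or ELS alone and near unstressed controls when both were combined. With the length trend removed this held for Grik1, at −0.25 with AS, −0.23 with ELS and −0.05 with both. Grik3 then stood at −0.07 with AS, 0.01 with ELS and 0.16 with both. Grik4 was lowest in the 2 groups of ELS mice, and Grik5, the most abundant subunit per length, hardly varied. These are differences between single group values, with no replicate error to set them against.

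Kainate receptors are glutamate-gated cation channels made of 4 subunits. Grik1, Grik2 and Grik3 encode GluK1, GluK2 and GluK3, which can form channels on their own, whereas Grik4 and Grik5 encode the high-affinity subunits GluK4 and GluK5, which need a subunit of the first class to reach the membrane. Neto1 and Neto2 are transmembrane partners that bind the receptors and slow their gating. In CA3 the receptors are best known from the mossy fiber synapse, where axons of dentate granule cells contact CA3 pyramidal cells.

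The study asked how AS alters gene expression in the hippocampus of mice with and without ELS. All animals were male C57BL/6 mice of 70 to 90 days, and RNA was purified by translating ribosome affinity purification (TRAP), which recovers mRNA bound to tagged ribosomes. By the methods the mice carried a Gprin3-BacTRAP transgene, so the Gprin3 promoter drives the tag in all groups, while the sample records give the genotype as wild type and the source as CA3 neurons. ELS mice had been raised with limited bedding between postnatal days 2 and 12. For AS, mice swam for 6 min at 25 °C (2 L of water) and then recovered for 1 h. The groups were ELS mice exposed to AS (3 libraries), unstressed ELS mice (3), controls exposed to AS (2) and unstressed controls (2), each library holding RNA pooled from 5 to 6 mice. These numbers are those of the sample records and differ from the methods, which give every group the same number, and the libraries behind each group value are not known. Control litters had full bedding.

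The deposited table gives 1 value per gene and group on a regularized log2 scale (rlog), on which a difference of 1 is a 2-fold difference and low counts are pulled towards the gene's mean. With 1 value per group there is no SD and no test, and the depth of the libraries was not examined. A member was counted as past the threshold when its difference exceeded 0.25 on the log2 scale, and shares of all genes are given beside the counts. Of the marker genes, Gprin3 had rlog values of 6.73 in ELS mice exposed to AS, 6.70 in unstressed ELS mice, 6.92 in controls exposed to AS and 7.47 in unstressed controls. The 9 CA3 pyramidal markers were all detected, the lowest being Coch at 5.01. Markers of other cells were detected as well, and none of the lists had a marker at 0: the lowest dentate granule marker was Trpc6 at 6.81, the lowest interneuron marker Vip at 6.73, the lowest astrocyte marker Gjb6 at 7.26 and the lowest oligodendrocyte marker Opalin at 7.72. The RNA therefore held transcripts typical of other cells beside those of CA3 neurons. In such material fewer cells of a type and less RNA per cell cannot be told apart.

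The 5 subunits share the stretch of coding sequence that lines the channel pore, and it is shown because it divides them into their 2 classes before any value is given. The lines below give 63 bases of the coding strand, 5′ to 3′, from the GENCODE M21 transcripts on GRCm38 (mm10). Capitals mark the glutamine codon of the Q/R site, which ADAR enzymes can edit to arginine in the RNA of Grik1 and Grik2.
Grik1: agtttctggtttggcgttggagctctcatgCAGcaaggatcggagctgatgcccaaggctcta
Grik2: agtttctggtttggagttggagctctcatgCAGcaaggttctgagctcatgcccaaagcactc
Grik3: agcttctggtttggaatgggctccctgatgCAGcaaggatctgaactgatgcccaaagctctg
Grik4: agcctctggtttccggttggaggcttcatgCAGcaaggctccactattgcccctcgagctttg
Grik5: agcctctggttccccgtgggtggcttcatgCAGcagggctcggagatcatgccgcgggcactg
The codon lies in exon 13 of 18 of Grik1 (chr16:87940542-87940544, minus strand), exon 13 of 17 of Grik2 (chr10:49244329-49244331, minus strand), exon 12 of 16 of Grik3 (chr4:125691207-125691209, plus strand), exon 16 of 21 of Grik4 (chr9:42547623-42547625, minus strand) and exon 15 of 20 of Grik5 (chr7:25022497-25022499, minus strand). All 5 genes carry the same codon there. Over the 63 bases Grik1 and Grik2 were 88.9% identical, Grik3 was 81.0% identical to each of them, and Grik4 and Grik5 were 73.0% identical. Pairs across the 2 classes shared between 60.3% and 69.8% of their bases. The table holds no edited reads, so editing itself was not measured. Gene positions given further on are from the same annotation and build.

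Levels of different genes were compared per length, as the rlog value minus the log2 of the longest annotated transcript in kb. On this scale the mean level over the 4 groups was 9.73 for Grik5, 8.09 for Neto1, 7.20 for Grik4, 6.64 for Neto2, 5.41 for Grik2, 5.05 for Grik3 and 4.43 for Grik1. The high-affinity subunits, Neto1 and Neto2 thus stood above the 3 subunits that form channels alone. The closest neighbors in this order were Grik2 and Grik3, and whether they differ beyond the spread of replicates cannot be said from 1 value per group. Within each group the order was the same, Grik5 first and Grik1 last.

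Expressed as shares of the summed level of the 5 subunits on the linear scale, per length, Grik5 made up 78.1% in ELS mice exposed to AS, 78.7% in unstressed ELS mice, 78.1% in controls exposed to AS and 75.5% in unstressed controls. The share of Grik4 was 12.7% in ELS mice exposed to AS, 12.8% in unstressed ELS mice, 13.8% in controls exposed to AS and 14.7% in unstressed controls. Grik2, the principal subunit of mossy fiber receptors, made up 3.67% in ELS mice exposed to AS, 3.68% in unstressed ELS mice, 3.58% in controls exposed to AS and 4.68% in unstressed controls. Grik4 and Grik5 together took between 90.2% and 92.0% in every group. The unstressed controls were the group with the largest share of Grik2 and Grik4 and the smallest share of Grik5. These shares rest on annotated transcript lengths and not on the isoforms present in the cells.

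**Figure D1:**
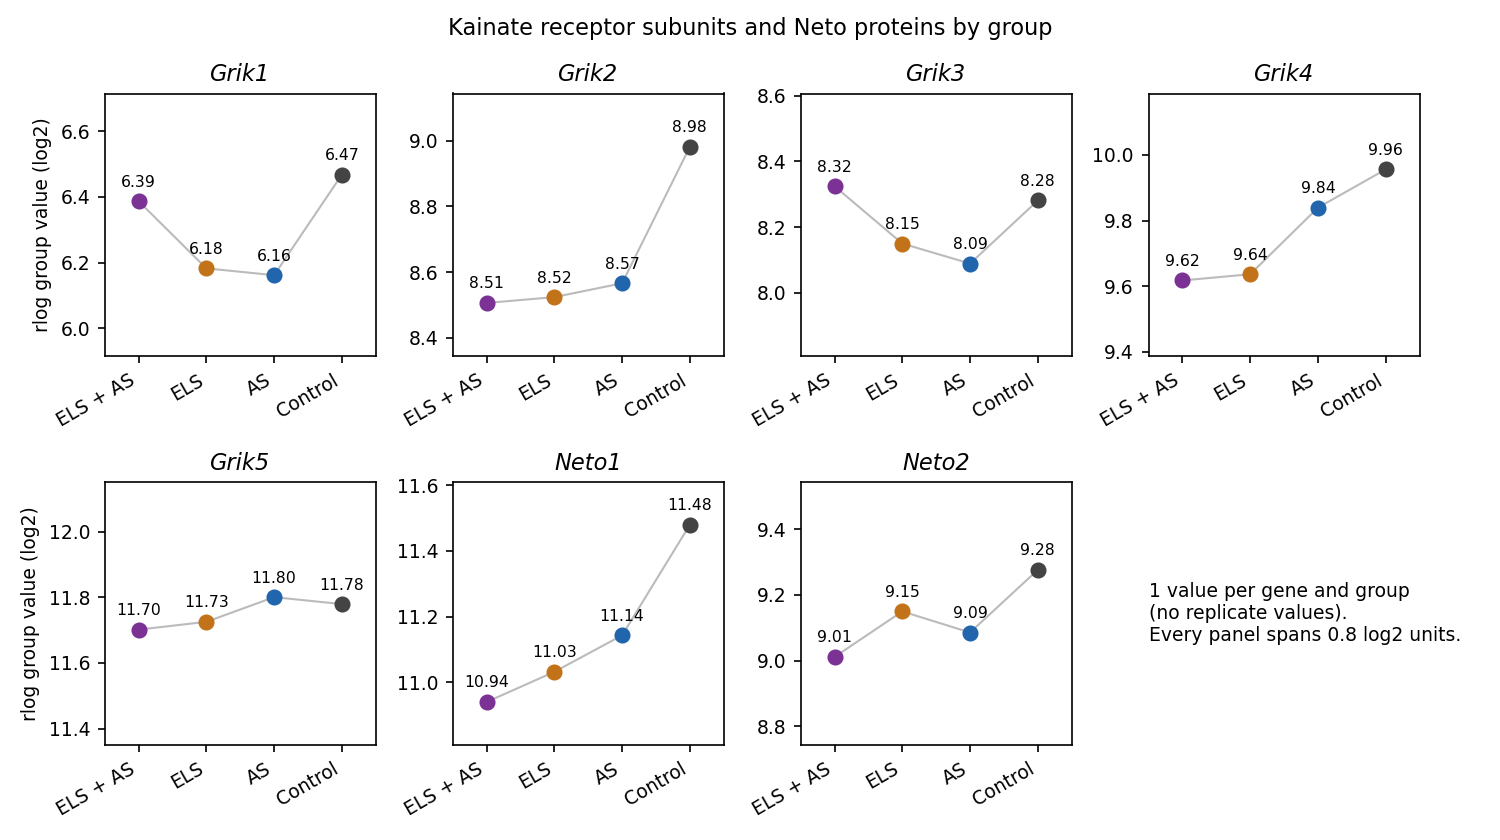
The rlog group value (log2) of each gene is plotted for ELS mice exposed to AS (ELS + AS), unstressed ELS mice (ELS), controls exposed to AS (AS) and unstressed controls (Control), 1 point per group, with every panel covering the same height and grey lines that only guide the eye. Grik2 and Neto1 stand highest in unstressed controls, Grik1 and Grik3 are lower in the 2 groups with 1 stress than in the other 2, and Grik5 stays within 0.10.

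Among the subunits that form channels alone, Grik2 (chr10:49094833-49788766, minus strand) varied most. Its rlog value was 8.51 in ELS mice exposed to AS, 8.52 in unstressed ELS mice, 8.57 in controls exposed to AS and 8.98 in unstressed controls. The 3 stressed groups lay within 0.06 of each other and all lay below the unstressed controls. Their differences from unstressed controls were −0.48 with both stresses, −0.46 with ELS and −0.42 with AS, or linear ratios of 0.719, 0.728 and 0.750. In rank among the 14986 genes these differences stood at percentiles 1.82, 2.46 and 3.67. The 3 differences share the unstressed controls, so they are not separate pieces of evidence.

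Grik1 (chr16:87895900-88290265, minus strand) encodes GluK1, which is known in the hippocampus mainly from interneurons. Its rlog values were 6.39 in ELS mice exposed to AS, 6.18 in unstressed ELS mice, 6.16 in controls exposed to AS and 6.47 in unstressed controls. The groups with 1 stress were low, and the group with both stresses stood within 0.08 of unstressed controls. Grik3 (chr4:125490700-125714173, plus strand), whose product GluK3 has a low affinity for glutamate and is found at mossy fiber terminals, followed the same order except at the top. It had 8.32 in ELS mice exposed to AS, 8.15 in unstressed ELS mice, 8.09 in controls exposed to AS and 8.28 in unstressed controls. Here ELS mice exposed to AS were the highest group, by 0.04 over unstressed controls.

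Of the high-affinity subunits, Grik4 (chr9:42518135-42944493, minus strand) encodes GluK4, which is enriched in CA3 pyramidal cells of the mouse. Its rlog values were 9.62 in ELS mice exposed to AS and 9.64 in unstressed ELS mice, against 9.84 in controls exposed to AS and 9.96 in unstressed controls. Both groups of ELS mice were below both groups of controls. Relative to unstressed controls the difference was −0.34 with both stresses, −0.32 with ELS and −0.12 with AS. Grik5 (chr7:25009849-25072346, minus strand), the most abundant subunit per length, had rlog values of 11.70 in ELS mice exposed to AS, 11.73 in unstressed ELS mice, 11.80 in controls exposed to AS and 11.78 in unstressed controls. Its whole span over the 4 groups was 0.10.

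Neto1 (chr18:86394952-86506718, plus strand), the auxiliary protein known to slow the decay of mossy fiber kainate currents, had rlog values of 10.94 in ELS mice exposed to AS, 11.03 in unstressed ELS mice, 11.14 in controls exposed to AS and 11.48 in unstressed controls. It had the widest span of the 7 genes, 0.54. The differences from unstressed controls were −0.54 with both stresses, −0.45 with ELS and −0.34 with AS, with linear ratios of 0.688, 0.733 and 0.792. Neto2 (chr8:85636588-85700924, minus strand), which slows the desensitization of receptors that hold GluK2, had rlog values of 9.01 in ELS mice exposed to AS, 9.15 in unstressed ELS mice, 9.09 in controls exposed to AS and 9.28 in unstressed controls. Its differences from unstressed controls were smaller, −0.27 with both stresses, −0.13 with ELS and −0.19 with AS. Neto1 exceeded Neto2 on the rlog scale, without regard to length, by 1.93 in ELS mice exposed to AS, 1.88 in unstressed ELS mice, 2.06 in controls exposed to AS and 2.20 in unstressed controls.

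In each comparison the members were then counted against all genes. After AS in controls, 3 of 7 members were lower by over 0.25, Grik1, Grik2 and Neto1, and 0 were higher, while 12.3% of all genes were lower and 11.4% higher by that size. Grik3, Grik4 and Neto2 had differences between −0.12 and −0.19, and Grik5 differed by 0.02. The median of the 7 differences was −0.19, against −0.01 over all genes. With each group centred on its median over genes, the same number of members, 3, was lower by over 0.25, and 9.36% of all genes were lower and 14.9% higher. Once the trend in transcript length was taken out, 2 members were lower by over 0.25, Grik1 at −0.25 and Grik2 at −0.30, and Neto1 came to −0.21. Of all genes 9.85% were then lower by that size.

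In unstressed ELS mice against unstressed controls, 4 of 7 members were lower by over 0.25, Grik1, Grik2, Grik4 and Neto1, and 0 were higher. The shares of all genes were 11.9% lower and 11.7% higher, or 8.90% and 14.7% with each group centred on its median. All 7 members were below unstressed controls at any size, as were 51.5% of all genes, and their median was −0.29 against −0.01 over all genes. The smallest difference was that of Grik5, −0.05. Transcripts of Grik2, Grik3 and Neto1 are long, 9427, 8973 and 8352 bases, and 96.7%, 96.1% and 94.9% of genes have shorter ones. Where the median difference of genes of like length was subtracted, 2 members remained past the threshold in unstressed ELS mice, Grik2 at −0.32 and Neto1 at −0.29, beside 8.50% of all genes. Grik1 came to −0.23 and Grik4 to −0.21, and Grik3 stood at 0.01, so that its difference of −0.13 was no larger than that of other long transcripts.

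ELS mice exposed to AS differed from unstressed controls by more than 0.25 in 4 of 7 members, all lower: Grik2, Grik4, Neto1 and Neto2. Of all genes, 9.47% were lower and 11.3% higher by that size. Neto1 stood at percentile 1.20 of all genes in this comparison. Grik3 differed by 0.04 and Grik1 and Grik5 both by −0.08. The median of the members was −0.27, against −0.00 over all genes. Without the trend in transcript length the differences of Grik2 and Neto1 were −0.35 and −0.41, Grik4 stood at −0.25 and Neto2, at −0.17, was no longer past the threshold. Of all genes 7.41% were then lower by over 0.25.

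**Figure D2:**
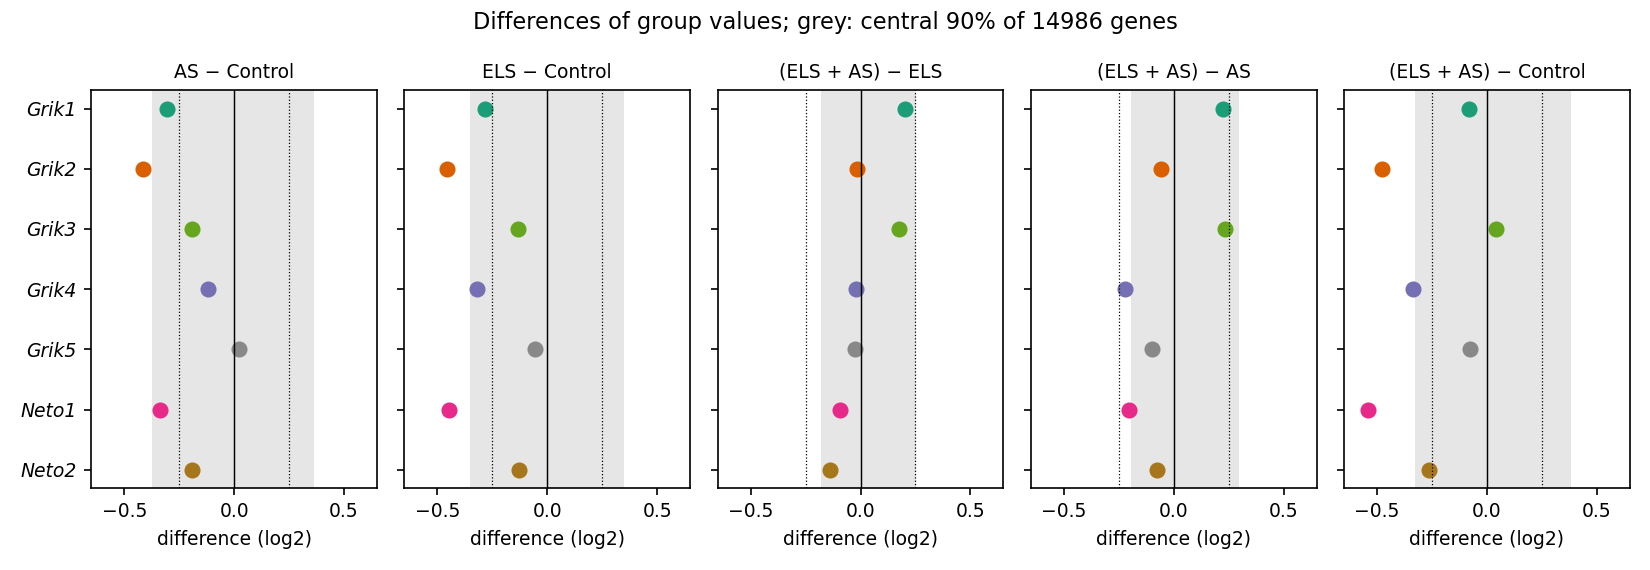
Differences of rlog group values (log2) are shown for the 7 genes in 5 comparisons, each point 1 gene, with the central 90% of 14986 genes in grey and dotted lines at 0.25 to either side of 0. Grik2 and Neto1 lie left of the lines in the 3 comparisons with unstressed controls, and no member passes them in the 2 comparisons among stressed groups.

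The response to AS was measured a second time in ELS mice, with ELS mice exposed to AS set against unstressed ELS mice. No member passed 0.25 there in either direction, that is 0 of 7 lower and 0 of 7 higher, when 1.96% of all genes were lower and 5.11% higher (2.72% and 4.15% with each group centred on its median). Grik1 was higher by 0.20 and Grik3 by 0.17, at percentiles 92.4 and 90.3 of all genes. Grik2 and Grik4 differed by −0.02 each and Neto1 by −0.09. Neto2 had the lowest value, −0.14 at percentile 8.97. The median of the 7 was −0.02, against 0.00 over all genes.

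ELS mice exposed to AS were also set against controls exposed to AS. Again 0 of 7 members were lower and 0 of 7 higher by over 0.25, beside 2.6% and 6.89% of all genes (3.64% and 5.65% with centring). Grik4 and Neto1 came closest on the lower side, with −0.22 and −0.20, and Grik1 and Grik3 on the higher side, with 0.23 and 0.24. When each group was centred on its median, 1 member passed the threshold on the lower side.

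The difference after AS in ELS mice minus that in controls was above 0 for 6 of 7 members, as for 52.6% of all genes, and past 0.25 for 3, Grik1 at 0.51, Grik2 at 0.40 and Grik3 at 0.37. None of the 7 was below −0.25, and of all genes 16.2% were lower and 19.3% higher by that size (22.3% and 13.4% with each group centred on its median). The 3 genes are those whose products form channels alone, but such values were not particular to them. Of the 11 other ionotropic glutamate receptor subunits described below, 9 were higher by over 0.25. So were 4 of 7 metabotropic glutamate receptors and all 9 dentate granule markers. Grik1, Grik2 and Grik3 reached their values in different ways. Grik2 was lower after AS in controls (−0.42) and differed little in ELS mice (−0.02), whereas Grik1 and Grik3 had opposite signs in the 2 settings. Of the 4899 genes that were lower by over 0.1 after AS in controls, 1248 or 25.5% were higher by over 0.1 after AS in ELS mice, and both Grik1 and Grik3 belong to these. With the length trend removed, however, Grik3 differed by −0.07 after AS in controls, which is short of 0.1. The remaining members had 0.24 for Neto1, 0.10 for Grik4, 0.05 for Neto2 and −0.04 for Grik5. Without the trend in transcript length Grik2 stood at 0.26, Grik3 at 0.23, Neto1 at 0.09, Grik4 at −0.02 and Neto2 at −0.09, so that Grik4 and Neto2 turned below 0 and Grik3 was no longer past the threshold. Neto2 stood at −0.01 with each group centred.

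Other ionotropic glutamate receptor subunits, those of AMPA and NMDA receptors and the delta subunit Grid1, gave a measure of how far the kainate genes stand with their relatives. After AS in controls 10 of the 11 that passed the filter were lower, beside 51.7% of all genes (median −0.19, as for the members). In unstressed ELS mice 9 of 11 were lower, beside 51.5% of all genes (median −0.21). All 11 were higher after AS in ELS mice than in unstressed ELS mice, by 0.04 to 0.33 with a median of 0.12, beside 50.8% of all genes. In that comparison 5 of 7 kainate members and 49.2% of all genes were lower, and 3 of these 5, Grik2, Grik4 and Grik5, were so by no more than 0.02. Grin3b, the NMDA subunit below the filter, differed by −0.02. Whether the members and the other subunits differ beyond replicate error was not tested.

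Among the AMPA subunits, Gria2, which makes the receptors calcium-tight once edited, differed by −0.31 after AS in controls, −0.39 in unstressed ELS mice and 0.12 after AS in ELS mice. Grin2a, an NMDA subunit of mature synapses, had −0.42, −0.62 and 0.17 in the same comparisons. Grin2d stood at 0.27, 0.10 and 0.09, and was alone among these 11 subunits above 0 after AS in controls. Grin2c, a subunit known from cerebellar granule cells and from glia, had −0.02, 0.29 and 0.33. Grid1 had −0.27, −0.35 and 0.14.

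Of 7 metabotropic glutamate receptors, 6 were lower after AS in controls (median −0.21) and 7 in unstressed ELS mice (median −0.15), and 6 were higher after AS in ELS mice (median 0.10). Of all genes, 51.7% and 51.5% were lower in the first 2 of these comparisons and 50.8% were higher in the last. Grm5, a postsynaptic receptor of pyramidal cells, differed by −0.34, −0.38 and 0.10, and Grm3, which is also expressed by astrocytes, by −0.33, −0.15 and 0.50. The auxiliary proteins of AMPA receptors, the counterparts of the Neto proteins, had no common direction. After AS in controls 6 of 12 were lower and 6 higher, with a median of 0.03, and unstressed ELS mice gave the same counts, the median being 0.02. Cacng8, a TARP of the hippocampus, differed by −0.40 and −0.43 and Cnih2, a cornichon protein of pyramidal cells, by 0.35 and 0.32.

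**Figure D3:**
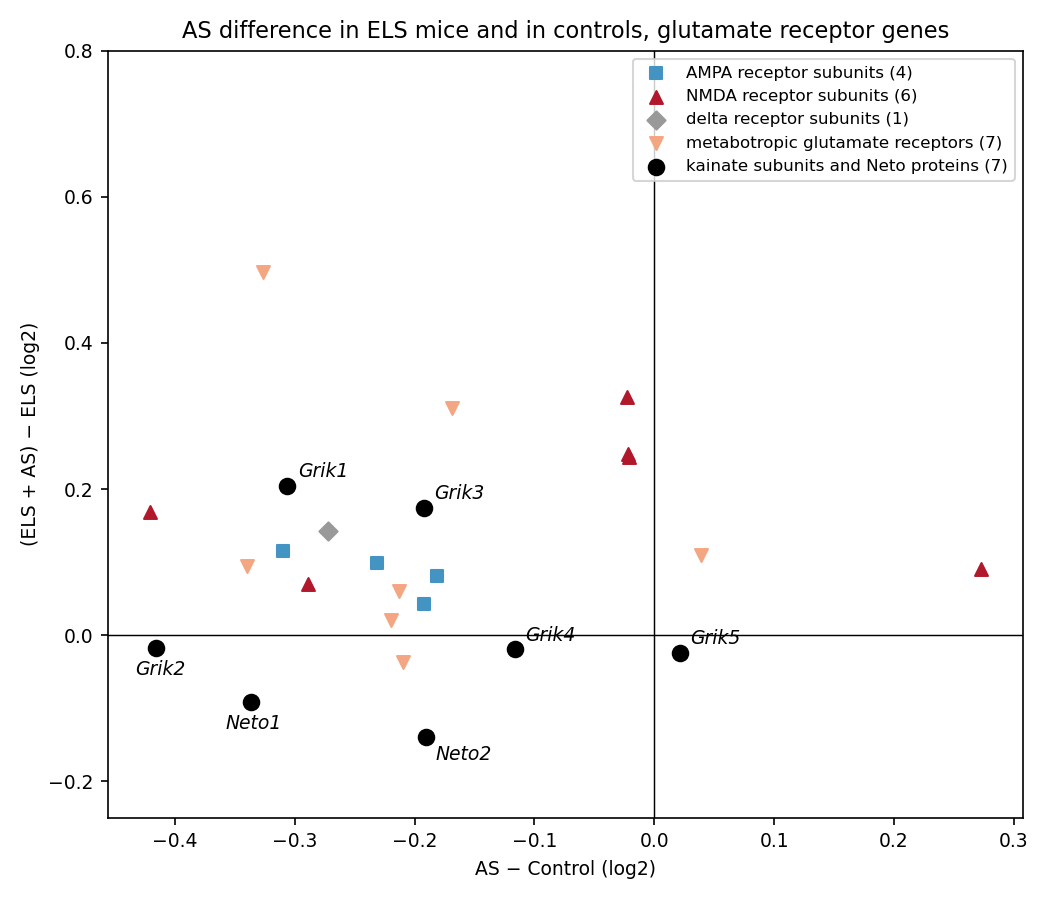
Each point is 1 glutamate receptor gene, metabotropic receptors included, with the difference after AS in controls (log2) on the horizontal axis and the difference after AS in ELS mice (log2) on the vertical axis. The plotted AMPA, NMDA and delta subunits all lie above the horizontal line at 0, where of the kainate group only Grik1 and Grik3 are found, with Grik2, Grik4, Grik5, Neto1 and Neto2 below it.

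Partners of kainate receptors were described from 29 genes for scaffolds, synapse organizers, turnover, transport, signaling and RNA editing. After AS in controls 22 of 29 were lower, 4 of them by over 0.25, and in unstressed ELS mice 20 of 29, 3 of them by over 0.25; none was higher by that size in either. Of all genes 51.7% and 51.5% were lower in these comparisons. By over 0.25, 12.3% and 11.9% of all genes were lower and 11.4% and 11.7% higher. The partners lower by over 0.25 were thus about as frequent as among all genes. Their medians, −0.09 and −0.12, were closer to 0 than those of the members. After AS in ELS mice 13 were lower and 16 higher, with a median of 0.00, close to the shares of all genes, 49.2% lower and 50.8% higher.

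Klhl24, whose product KRIP6 binds GluK2 and alters its gating, was the partner with the lowest difference after AS in controls. It had rlog values of 10.04 in ELS mice exposed to AS, 9.96 in unstressed ELS mice, 9.86 in controls exposed to AS and 10.38 in unstressed controls, so that all stressed groups were below unstressed controls. Klhl17, an adaptor that brings GluK2 to the Cul3 ubiquitin ligase, differed by 0.01 after AS in controls and by −0.27 in unstressed ELS mice. Park2, the ubiquitin ligase parkin, stood at 0.19 and 0.07.

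Of the scaffolds, Cdh2, the cadherin found in a complex with GluK2, stood at −0.33 after AS in controls, with −0.25 in unstressed ELS mice, and Dlg1, a PDZ protein, at −0.31 and −0.11. Dlg4, which encodes PSD-95 and binds the tail of GluK2, was the scaffold with the highest values, 0.19 and 0.18. The motor Kif17, which carries receptor subunits along dendrites, stayed near 0 with 0.02 and 0.01. Of the other trafficking genes, Nsf had −0.14 and −0.22 and Snap25 −0.09 and 0.07. Prkca, a protein kinase C that phosphorylates GluK2, had −0.11 and −0.24, and −0.32 with both stresses.

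The organizers C1ql2 and C1ql3 are secreted by mossy fibers and tie Nrxn3 to GluK2 and GluK4. C1ql2 had rlog values of 9.77 in ELS mice exposed to AS, 9.25 in unstressed ELS mice, 9.08 in controls exposed to AS and 9.26 in unstressed controls. Its value in ELS mice exposed to AS was the highest of the 4 groups, by 0.51 over unstressed ELS mice and 0.69 over controls exposed to AS. C1ql3 had rlog values of 10.75 in ELS mice exposed to AS, 10.52 in unstressed ELS mice, 10.36 in controls exposed to AS and 10.65 in unstressed controls, with ELS mice exposed to AS again highest. The presynaptic partner Nrxn3 had 11.35 in ELS mice exposed to AS, 11.36 in unstressed ELS mice, 11.39 in controls exposed to AS and 11.55 in unstressed controls, an order closer to that of Grik2 and Neto1.

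The editing enzymes that can recode the codon marked above were lower in ELS mice at rest, as were 51.5% of all genes. By over 0.1, 32.7% of all genes were lower there. Adar stood at −0.20 in controls exposed to AS and −0.27 in unstressed ELS mice, both against unstressed controls. Adarb1, the main editor of the Q/R site of Gria2 and Grik2, had −0.09 and −0.13. With both stresses Adarb1 stood at −0.21. Adarb2, for which no editing activity is known, differed by 0.03 and −0.09.

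Since the RNA held transcripts of several cell types, marker lists were set beside the members. The 9 CA3 markers were lower in 8 cases after AS in controls (median −0.29) and in 8 in unstressed ELS mice (median −0.16). They were lower in 7 after AS in ELS mice (median −0.09). In ELS mice exposed to AS against unstressed controls all 9 were lower (median −0.29). Of all genes, 51.7%, 51.5%, 49.2% and 50.9% were lower in these comparisons. The log2 of the summed level of the CA3 markers was 13.16 in ELS mice exposed to AS and 13.31 in unstressed ELS mice. It was 13.22 in controls exposed to AS and 13.44 in unstressed controls. The list thus lay below unstressed controls in the same 3 groups as Grik2 and Neto1. Gprin3, which belongs to that list and drives the tag, differed by −0.74 with both stresses, −0.76 with ELS and −0.55 with AS. The part of these differences in the values of Grik2, Grik4 and Neto1 was not tested.

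Dentate granule markers, by contrast, had the order of Grik3 in their summed level. All 9 were lower after AS in controls (median −0.37) and 7 of 9 in unstressed ELS mice (median −0.30), and all 9 were higher after AS in ELS mice (median 0.25). Of all genes, 51.7% and 51.5% were lower and 50.8% higher in these comparisons. Against unstressed controls the median of the dentate granule markers in ELS mice exposed to AS was 0.00. The log2 of their summed level was 12.85 in ELS mice exposed to AS, 12.60 in unstressed ELS mice, 12.48 in controls exposed to AS and 12.75 in unstressed controls. The 5 oligodendrocyte precursor markers had the same order in their summed level. It was 9.18 in ELS mice exposed to AS, 8.80 in unstressed ELS mice, 8.75 in controls exposed to AS and 8.96 in unstressed controls. The median oligodendrocyte marker had this order too, at 10.50, 10.05, 9.83 and 10.14 in the same groups. The part of these lists in the values of Grik1, Grik3 and C1ql2 was not tested.

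Markers of interneurons and glia were higher after AS in ELS mice as well, where 50.8% of all genes were higher. The interneuron list was higher in 11 of 11 genes (median 0.24), with log2 summed levels of 13.95 in ELS mice exposed to AS, 13.65 in unstressed ELS mice, 13.63 in controls exposed to AS and 13.61 in unstressed controls. Astrocyte markers were higher in 9 of 9 (median 0.47) and had summed levels of 15.12 in ELS mice exposed to AS, 14.68 in unstressed ELS mice, 14.69 in controls exposed to AS and 14.61 in unstressed controls. Oligodendrocyte markers were higher in 10 of 10 (median 0.40), with sums of 15.68 in ELS mice exposed to AS, 15.35 in unstressed ELS mice, 15.24 in controls exposed to AS and 15.22 in unstressed controls. Microglia markers were higher in 9 of 10 (median 0.28), with sums of 10.63 in ELS mice exposed to AS, 10.36 in unstressed ELS mice, 10.30 in controls exposed to AS and 10.13 in unstressed controls. The 5 CA1 markers were higher in 5 of 5 (median 0.17). These 5 lists had their highest sums in the group where Grik1 and Grik3 stood near the level of unstressed controls. So did the dentate granule, oligodendrocyte precursor and endothelial lists, but not the CA3 and CA2 lists. Of the endothelial markers, 3 of 7 were higher after AS in ELS mice (median −0.08), and of the CA2 markers 2 of 4 (median 0.03). The part of any of these lists in the values of Grik1 and Grik3 was not tested.

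**Figure D4:**
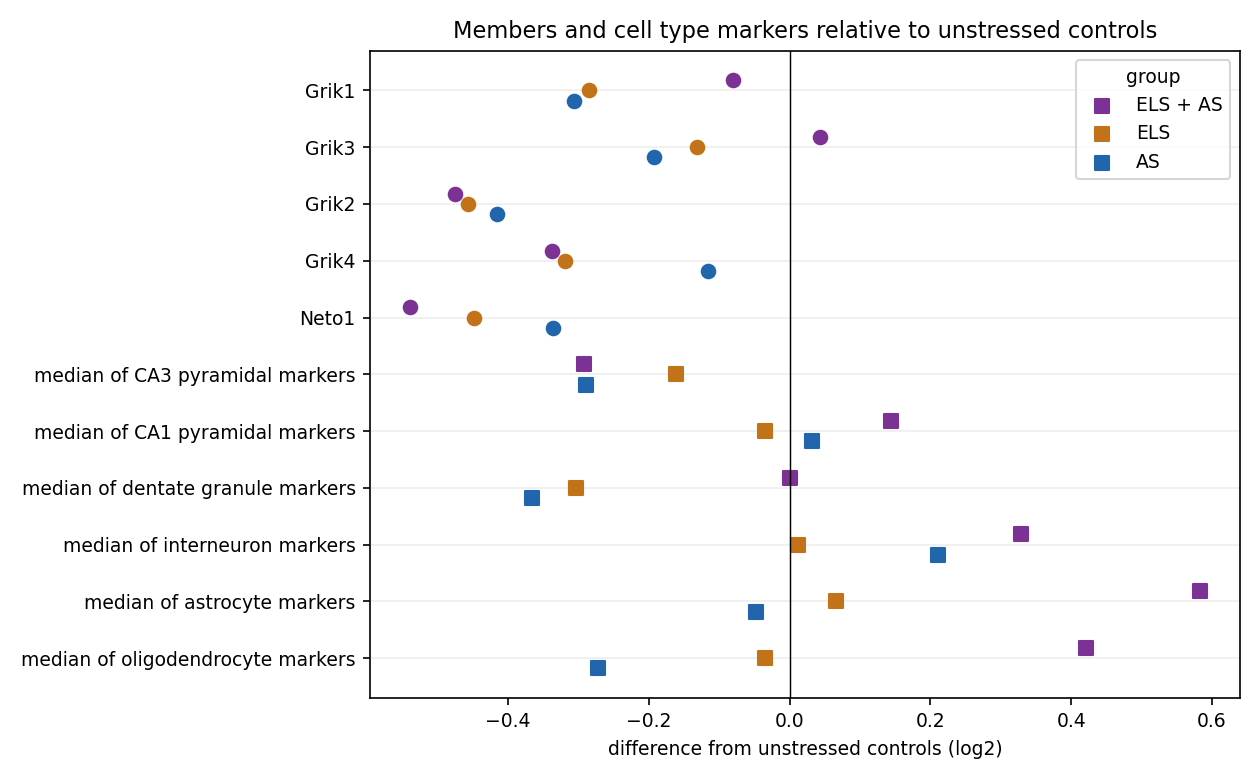
Differences from unstressed controls (log2) are plotted for 5 members (circles, 1 gene each) and for 6 marker lists (squares, the median of each list), with ELS mice exposed to AS above unstressed ELS mice and controls exposed to AS in each row. Grik2, Grik4, Neto1 and the CA3 markers lie left of 0 in every group, while Grik1, Grik3 and the dentate granule markers lie left of 0 with 1 stress and near 0 with both.

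Likeness of profiles was measured as the root mean square distance between the 4 group values of 2 genes, each centred on its own mean. Among the 21 pairs of members the closest were Grik2 and Neto1 at 0.05 and Grik1 and Grik3 at 0.06. The furthest were Grik3 and Neto1 at 0.22. Grik1 and Grik2, the most alike in the pore stretch, were 0.14 apart, and Grik4 and Grik5 0.11. Neto1 was not among the pore stretches compared, and these distances depend on how widely each gene varies. Whether expression follows sequence can therefore not be read from them.

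Over all genes averaging at least 6, the 3 nearest to Grik2 were Dot1l, Gcn1l1 and Fry, at distances of 0.01 each. Dot1l, a histone methyltransferase, had 8.16 in ELS mice exposed to AS, 8.18 in unstressed ELS mice, 8.24 in controls exposed to AS and 8.63 in unstressed controls. Nearest to Neto1 were Kalrn, Slx4ip and Pcgf3, at 0.02, 0.03 and 0.03. Kalrn encodes kalirin, an exchange factor of dendritic spines, and had 13.69 in ELS mice exposed to AS, 13.79 in unstressed ELS mice, 13.92 in controls exposed to AS and 14.22 in unstressed controls. For Grik4 the nearest were Tln2, Gpr83 and Pfkfb3, each at 0.02, and for Grik1 they were Vav3, Zbtb1 and Hkdc1, at 0.01, 0.01 and 0.02. With 4 points per gene and 11879 genes to choose from, such near matches describe the profile and nothing more.

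Grik1, Grik2, Grik4, Neto1 and Neto2, 5 of 7 members, were below unstressed controls in every stressed group, as were 37.4% of all genes. The promoters of 2 of them, Grik2 and Grik4, are shown. They are RefSeq sequences on GRCm38.p6, 250 bases before to 50 after the annotated start, printed 5′ to 3′ on the strand of the gene. Grik2 lies at chr10:49788705-49789004 and Grik4 at chr9:42944322-42944621, both on the minus strand. Capitals mark the GC box GGGCGG on either strand, of which the Grik2 window has none.
Grik2 promoter: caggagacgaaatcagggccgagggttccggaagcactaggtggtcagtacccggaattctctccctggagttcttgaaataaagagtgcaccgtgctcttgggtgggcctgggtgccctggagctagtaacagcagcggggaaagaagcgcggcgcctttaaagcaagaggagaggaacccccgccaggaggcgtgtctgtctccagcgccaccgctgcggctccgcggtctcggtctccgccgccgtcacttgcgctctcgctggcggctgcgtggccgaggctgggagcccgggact
Grik4 promoter: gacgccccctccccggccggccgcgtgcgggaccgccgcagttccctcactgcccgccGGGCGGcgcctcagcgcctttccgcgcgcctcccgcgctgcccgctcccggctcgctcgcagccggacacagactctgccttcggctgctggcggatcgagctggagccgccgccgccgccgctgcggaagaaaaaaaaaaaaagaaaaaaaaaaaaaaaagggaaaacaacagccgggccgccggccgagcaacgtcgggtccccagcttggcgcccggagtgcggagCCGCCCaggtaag
On both strands the letters of the cAMP response element (TGACGTCA), the EGR1 motif (GCGTGGGCG) and the glucocorticoid receptor hexamer (AGAACA) were absent from these windows. Over 32851 mouse promoters of the same length 1.79%, 0.612% and 19.0% hold them. The GC box occurred 0 times in the Grik2 window and 2 times in that of Grik4, and 35.7% of all promoters hold it. The last 5 letters of the EGR1 motif are also the first 5 of the GC box. The GC content of the Grik2 window was 64.7%, against a median of 52.7% over all promoters. Windows were listed for 5 of the 7 members. Those of Grik3 and Grik5 held 7 and 2 GC boxes, and the 2 windows of Neto2 held 2 and 0. None of the listed windows held the other 3 motifs. A motif is a match of letters and not a binding site.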

How the data were processed

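The authors aligned the reads to mm10 with Rsubread, quantified transcripts with Salmon and tximport and fitted DESeq2; tool versions are not given in the sources used here. The values the authors deposited are log2 values from the regularized logarithm of DESeq2, 1 per gene and group, from −2.22 to 17.71. How the 10 libraries entered the 4 group values, and whether the limma batch correction of the methods was applied, is not stated. Read counts and depth were not used here, so precision is unknown.

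Of 20196 symbols, 25 turned into dates were left out. Differences between group values were counted past 0.25 among 14986 genes with a mean of at least 3. Longest transcripts from GENCODE M21 were found for 14694 of them (98.1%). No fit was run across genes and no p-value is given. The genes and lists were chosen with earlier results of these data known. Named genes are the 7 members, the list members furthest from 0, the 3 nearest profiles of members spanning at least 0.3, and Gprin3; Grin3b and the lowest marker of each list were added after values were seen. Some genes of the lists are not reported here and do not enter the counts of their lists. The code was tested on simulated data. Alternatives were other sizes, other filters, centring of each group on its median, removal of trends in length (50 bins) and level, means for medians and, after the data were seen, values relative to Grik5. Python 3.11.15, numpy 2.4.6, pandas 2.3.3 and matplotlib 3.10.9 were used.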

Additional observations from a re-analysis of the deposited data

Results flagged for a closer look

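For Grik1 and Grik3 the difference after AS had opposite signs in ELS mice and in controls. For Grik1 it was 0.20 in ELS mice and −0.31 in controls, so that the difference in ELS mice minus that in controls was 0.51. For Grik3 it was 0.17 in ELS mice and −0.19 in controls, with 0.37 between them. With 1 value per group the difference between the responses was not tested in either gene. Once the median of genes of like transcript length was subtracted, Grik3 stood at 0.16 in ELS mice and −0.07 in controls, with 0.23 between them. Outlying samples could not be looked for, since the table has no values per library.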

How the results depend on the processing

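At a size of 0.1 in place of 0.25, 6 members were lower after AS in controls (3 at 0.25), beside 32.7% of all genes. After AS in ELS mice 1 was lower and 2 were higher (0 at 0.25), beside 15.8% and 19.8% of all genes, and in ELS mice exposed to AS against controls exposed to AS 2 were lower and 2 higher (0 at 0.25), beside 19.0% and 21.8%. At 0.5 the members lower were 0 after AS in controls, 0 in unstressed ELS mice and 1 with both stresses, beside 2.08%, 1.92% and 1.55% of all genes. Removing the trend in transcript length left 2 members lower in unstressed ELS mice (4 before), 2 after AS in controls (3 before) and 3 with both stresses (4 before), and centring put 1 below −0.25 in ELS mice exposed to AS against controls exposed to AS. The filters on the mean and the trend in level altered none of these 10 counts by over 1.5 times. Of 42 member differences, 16 moved by over 0.1 with the length trend removed, and 0 of 42 with centring or the level trend. Values relative to Grik5, chosen after the data were seen, shift by Grik5's own differences of at most 0.10 by construction and are no check of stability. No paired analysis was possible because the table holds group values and no value per library; leaving out libraries in turn could not be run for the same reason. Read depth and replicate spread, which would limit these differences, are unknown.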
